A study of Mus musculus with 6 samples.

Results

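The myeloid cells without C1q were 262 of the 38208 lung cells kept from 6 single-cell RNA libraries. A cell was taken when at least 3 of *Tyrobp*, *Fcer1g*, *Lyz2*, *Csf1r*, *Cd68* and *Lst1* were detected, each by 1 RNA molecule (UMI) or more. It could hold no more than 1 of *C1qa*, *C1qb*, *C1qc*, *Pf4* and *Mrc1*, no more than 1 of *Pecam1*, *Tie1*, *Egfl7*, *Cldn5* and *Cdh5*, which mark endothelium, and no more than 1 of the lymphoid genes *Cd79a*, *Cd79b*, *Cd3e* and *Cd3d*. Cells were kept if 500 genes or more were detected and mitochondrial RNA made up 10% of UMIs or less. The members were chosen by the detection of these 20 genes, so the levels of the genes are given as a description.

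The study asked how chronic TNF changes the cells of the lung. Lungs of TNF-Tg mice, which carry a human TNF transgene, and of littermate WT mice were taken at ages of 8, 14 or 20 weeks. The lungs of each genotype and age were pooled, and live cells negative for CD45, the pan leukocyte surface protein, and for CD326, an epithelial protein, were sorted into 1 library. Each genotype therefore had 3 libraries, 1 at each age, and the ages stood as its replicates. The labels call the sorted cells non-immune, so the cells described here are those that passed a depletion meant to remove them.

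Myeloid cells of the lung comprise resident macrophages, monocytes, granulocytes and dendritic cells. Classical monocytes enter inflamed tissue, nonclassical monocytes patrol the inner face of blood vessels and need the receptor NR4A1, and alveolar macrophages clear surfactant from the air spaces. C1q, the first component of the classical complement pathway, is made by many tissue macrophages and by few circulating cells, so its absence leaves a mixture of these types. TYROBP and FcεRIγ, the products of *Tyrobp* and *Fcer1g*, are adapters that carry the activating ITAM signal of many myeloid receptors. CSF1R is the receptor of the macrophage growth factor, and LYZ2 is a lysozyme.

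The TNF-Tg libraries held 8, 25 and 221 of these cells at 8, 14 and 20 weeks. The WT libraries held 1, 1 and 6. As a share of kept cells this was 0.0156% at 8 weeks, 0.0165% at 14 weeks and 0.0862% at 20 weeks in WT (exact Clopper-Pearson 95% interval of the last 0.0316% to 0.188%). In TNF-Tg it was 0.121% (0.0523% to 0.239%), 0.430% (0.278% to 0.634%) and 3.48% (3.05% to 3.96%). The lowest TNF-Tg share lay above the highest WT share, although the intervals of the TNF-Tg library of 8 weeks and the WT library of 20 weeks overlapped. The mean share was 1.31 percentage points higher in TNF-Tg, with a two-sided exact permutation p of 0.1 over 3 libraries against 3, the smallest p this design allows. Within each age TNF-Tg was higher, by 0.106, 0.413 and 3.40 percentage points at 8, 14 and 20 weeks. Without the TNF-Tg library of 20 weeks the difference was 0.236 percentage points, so most of it rested on 1 library. It was 1.99 percentage points when 2 myeloid genes sufficed and 0.826 percentage points when no endothelial gene was allowed. All intervals cover counting error only.

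**Figure D1:**
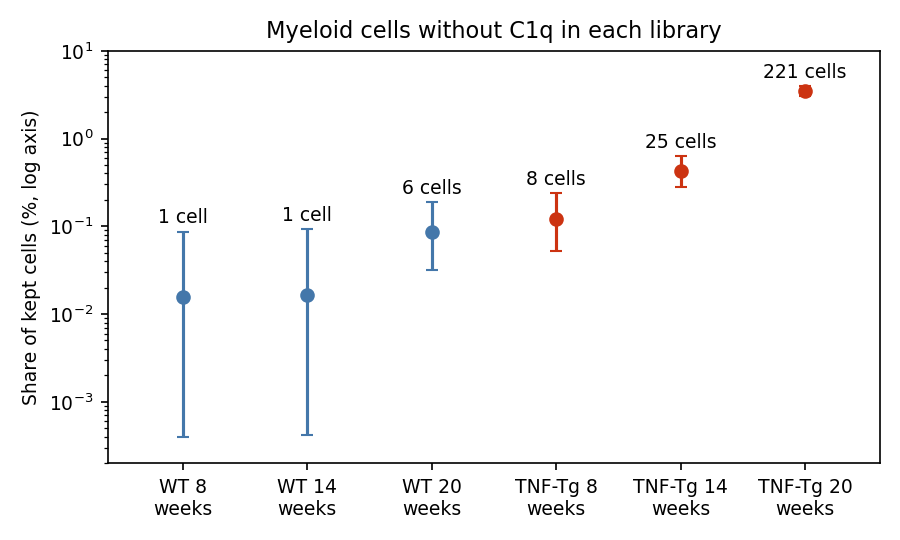
Share of myeloid cells without C1q among kept cells (%, log axis) in each of the 6 libraries, WT in blue and TNF-Tg in red. Points are single libraries, bars are exact 95% binomial intervals and the number of cells stands above each; the TNF-Tg library of 20 weeks, with 221 cells, lies far above the others.

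Kept cells of TNF-Tg libraries held more RNA (median 9179 to 9808 UMIs) than those of WT libraries (4455 to 4766). The myeloid cells did not follow this: their median was 6102, 12554 and 6984 UMIs in WT and 6807, 7200 and 5773 UMIs in TNF-Tg, at 8, 14 and 20 weeks. When each cell was thinned to 1000 UMIs, which left out 142 WT and 159 TNF-Tg cells below that depth, the shares were 0.0313%, 0.0167% and 0.0433% in WT and 0.197%, 0.475% and 3.35% in TNF-Tg. The mean difference was then 1.31 percentage points, as without thinning. The excluding genes were thinned too, and membership changed: TNF-Tg at 8 weeks went from 8 to 13 cells and WT at 20 weeks from 6 to 3. Pairs of libraries shared 6 to 24 cell barcodes.

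The same rule with at least 2 of the C1q, *Pf4* and *Mrc1* genes found 106 cells, called C1q and Pf4 macrophages here. They numbered 0 in every WT library and 5, 10 and 91 in TNF-Tg at 8, 14 and 20 weeks. The cells without C1q thus made up 61.5%, 71.4% and 70.8% of myeloid cells in TNF-Tg, and all of the 1, 1 and 6 myeloid cells in WT. The difference of mean shares was -32.07 percentage points (two-sided exact permutation p = 0.1, again the smallest possible), but with 6 WT cells at most the interval of the WT share reached down to 54.1% at 20 weeks and to 2.5% at the other ages. At this depth a mix of both kinds of cell in WT lungs lay within the counting error.

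Of the cells at 20 weeks in TNF-Tg, 124 held all 6 of the myeloid genes, 52 held 5, 19 held 4, and 26 stood at the limit of 3. Another 120 barcodes of that library fell just outside with 2 myeloid genes, against 14 and 18 in TNF-Tg at 8 and 14 weeks and 15, 3 and 5 in WT. On the C1q side, 28 members of the 20-week TNF-Tg library held 1 gene of the C1q set, and 4 barcodes lay just outside with 2. A single endothelial gene was present in 75 members of that library, and 19 barcodes lay just outside with 2.

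*Tyrobp* was detected in 254 of the 262 cells, *Fcer1g* in 253, *Lyz2* in 246, *Lst1* in 223, *Csf1r* in 210 and *Cd68* in 178. In 31289 endothelial reference cells, which carried at least 3 of the endothelial genes and at most 1 myeloid gene, the share with a UMI was 0.304% for *Tyrobp* and 4.13% for *Lyz2*. Median depth was 4268 to 9657 UMIs in those cells. The 6 genes lie at chr7:30413760-30417585 (*Tyrobp*, plus strand), chr1:171229572-171234365 (*Fcer1g*, minus), chr10:117277331-117282321 (*Lyz2*, minus), chr11:69664213-69666153 (*Cd68*, minus) and chr17:35185095-35188439 (*Lst1*, minus) in GRCm38, and *Csf1r* on chromosome 18. *C1qa*, *C1qb* and *C1qc* were seen in 8, 5 and 2 of the cells, with 9, 6 and 3 UMIs.

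Levels are given as UMIs of a gene per 1000000 UMIs of the summed cells (CPM). At 8, 14 and 20 weeks *Tyrobp* stood at 5572, 3664 and 2754 CPM in WT cells, while TNF-Tg cells had 3400.4, 1908 and 2566 CPM, and the genotypes overlapped. *Lyz2* stood at 12291, 18560 and 14366 CPM in the WT libraries, and TNF-Tg had 8933, 14382 and 14626 CPM, again overlapping. *Csf1r* reached 492, 797 and 199 CPM in WT cells and 1307, 819 and 742 CPM in TNF-Tg cells; the WT library of 14 weeks lay between the 2 older TNF-Tg libraries.

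The labels state that CD45+ cells were depleted, so the RNA of *Ptprc*, the gene of CD45, is described here. It was detected in 7 of 8 WT cells and in 8 of 8, 16 of 25 and 200 of 221 TNF-Tg cells. WT members had 1475, 2151 and 1014 CPM and TNF-Tg members 2030.1, 1129.9 and 1173 CPM, compared with at most 0.885 CPM in endothelial reference cells. Members were chosen by myeloid genes and reference cells by their near absence. The contrast therefore follows from the selection and is no check of the depletion. The other 5 pan leukocyte genes, *Coro1a*, *Laptm5*, *Cd52*, *Rac2* and *Cd53*, were each found in the members of every library. Whether depletion worked equally well in each sort was not tested, and a higher number of leukocytes in the lung and a weaker depletion cannot be told apart from these files.

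A fit of genotype in these cells needed at least 2 libraries per genotype with 5 cells or more, and only 1 WT library had that many. With every library included, however few its cells, edgeR's quasi-likelihood test called 0 of 982 genes higher (0% called) and 0 lower (0% called) in TNF-Tg at a Benjamini-Hochberg adjusted p below 0.05. At an unadjusted p below 0.05, 39 genes were higher and 31 lower, and the smallest adjusted p was 0.155. The WT sums held 6102 and 12554 UMIs at 8 and 14 weeks, and a test without calls does not show that the genotypes were equal.

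Clustering the 262 cells on their RNA gave 13 clusters, which were named from marker lists and carry the ending -like. A cluster against the rest is no test, so its genes are given as a description. The most frequent kind, with 147 cells in 5 clusters (56.1%), was nonclassical monocyte-like, as the plot of makeup shows. There were 32 classical monocyte-like cells (12.2%), 20 alveolar macrophage-like cells, 13 mast cell or basophil-like cells, 6 neutrophil-like cells and 4 NK cell-like cells, the last of which are lymphoid rather than myeloid. Another 40 cells in 3 clusters were left without a name and are called by their leading genes. With 221 of the cells from 1 library, a cluster may reflect that library.

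**Figure D2:**
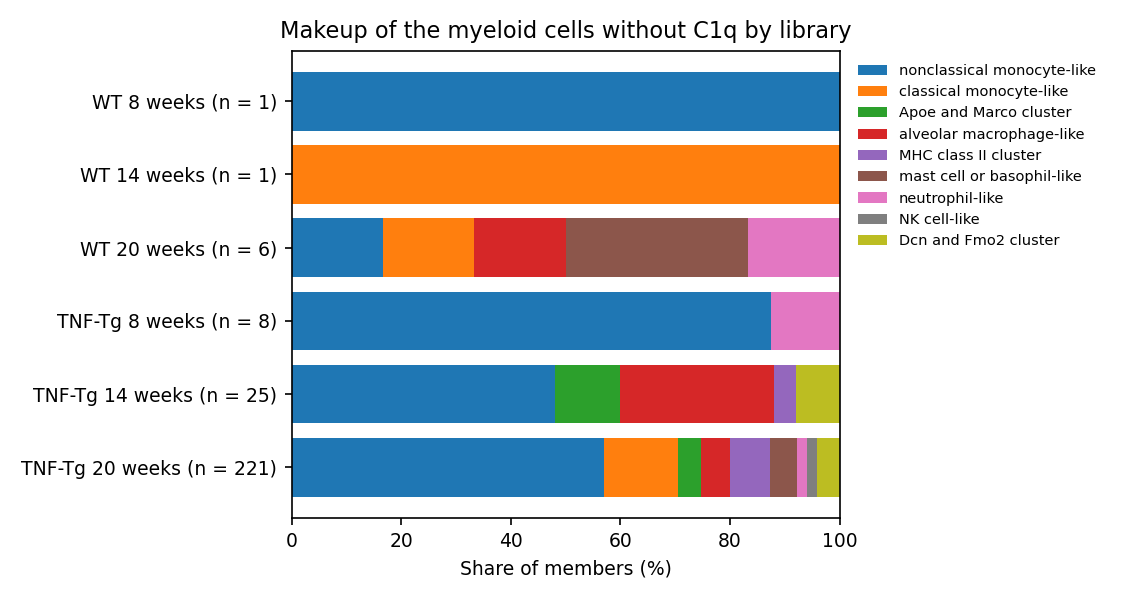
Makeup of the members of each library (%), each bar summing to 100%, with the number of cells beside the library. Nonclassical monocyte-like cells (dark blue) are 7 of 8, 12 of 25 and 126 of 221 cells in TNF-Tg at 8, 14 and 20 weeks; the WT bars rest on 1, 1 and 6 cells.

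Nonclassical monocyte-like cells numbered 1, 0 and 1 in WT and 7, 12 and 126 in TNF-Tg at 8, 14 and 20 weeks. Of these 147 cells, 103 held all 6 myeloid rule genes, and their median depth was 5303 UMIs. Each of the 5 clusters held all 9 of 9 nonclassical markers, but 1 cluster of 24 cells differed in other ways. Its median mitochondrial share was 4.15%, against 2.14% to 2.57% in the others, and 9 of its cells held all 6 rule genes. It also met 3 of 5 endothelial markers. Over all 147 cells *Nr4a1*, the nuclear receptor these monocytes depend on (chr15:101254269-101274795), was at 655 CPM against 237 CPM in classical monocyte-like cells. *Ace*, which encodes angiotensin-converting enzyme (chr11:105967945-105989964), was at 724 against 37.6 CPM, and *Treml4*, a receptor of the TREM family, at 551 against 86.8 CPM. *Spn* (CD43), an established surface marker of the type, was at 836 against 119.7 CPM, and *Itgal*, the alpha chain of the integrin LFA-1, at 1555 against 251 CPM. *Cx3cr1*, the fractalkine receptor, was at 853 CPM against 415 CPM.

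At the 3 ages most of these levels lay close together. In TNF-Tg at 8, 14 and 20 weeks *Nr4a1* stood at 813, 663 and 638 CPM, *Ace* at 650.1, 599 and 749 CPM, and *Eno3*, a muscle-type enolase, at 745, 699.9 and 796 CPM. *Cx3cr1* stood at 1287, 1022 and 793 CPM, and *Fcgr4*, an activating Fc receptor, at 325, 322 and 189 CPM, so that both were lowest at 20 weeks. Set against the summed libraries of 8 and 14 weeks, the 20-week library had a ratio of 0.702 for *Cx3cr1* (exact counting interval 0.598 to 0.828), 0.586 for *Fcgr4* (0.428 to 0.810) and 0.599 for *Apoe*, an apolipoprotein (0.523 to 0.688). None of the 9 nonclassical markers differed 2-fold or more, where 3.75% of 3096 genes were at least 2-fold higher and 4.43% at least 2-fold lower. For 9 genes this is near the share over all genes. The same markers gave the clusters their name, so their likeness across ages is partly built in. The 6 rule genes had a median ratio of 1.03, beside 0.942 for all 3096 genes. This is 1 library against 2 and has no replicate test.

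The C1q and Pf4 macrophages of the same TNF-Tg libraries show how the nonclassical monocyte-like cells differ from them, as the plot of both populations sets out. The summed level of the 9 genes of the nonclassical monocyte list was 7246, 7449.97 and 7203 CPM in these cells at 8, 14 and 20 weeks, and 695, 714 and 623 CPM in the macrophages. *Cx3cr1* was the marker they shared most, at 585, 541 and 461 CPM in the macrophages. *Apoe*, a lipid carrier, was at 1720.03, 1630.0 and 998 CPM in the nonclassical monocyte-like cells and at 13714, 22473 and 23372 CPM in the macrophages. *Tnfrsf1b*, which encodes TNF receptor 2, was at 786, 617 and 520 CPM in the former and at 0, 79.3 and 81.1 CPM in the latter. *H2-Aa*, an MHC class II chain, was at 0, 0 and 7.12 CPM and at 12946, 1377 and 3226 CPM. The nonclassical clusters were named by the 9 nonclassical genes, so the gap in those genes is partly built in. The rule separated the populations on the C1q set and both were known when chosen, so these differences carry no test.

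**Figure D3:**
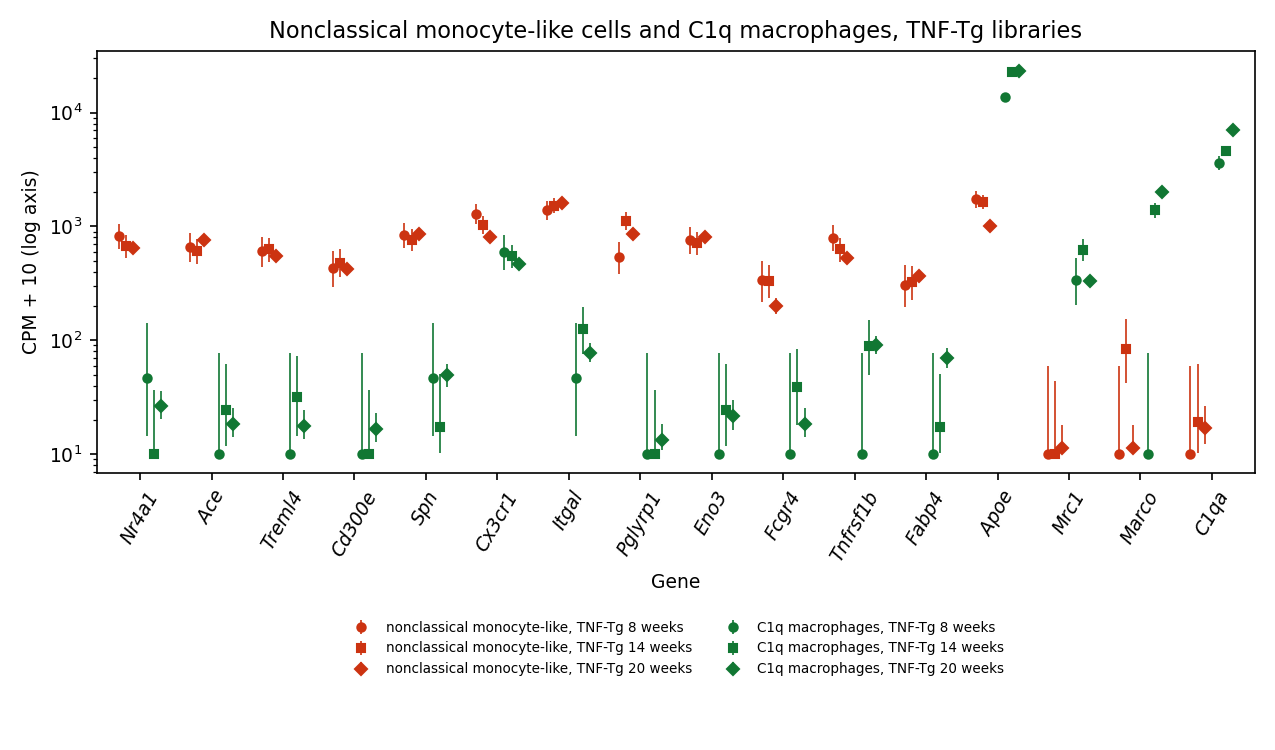
Levels (CPM + 10, log axis) of 16 genes in nonclassical monocyte-like cells (red) and in C1q and Pf4 macrophages (green) of the TNF-Tg libraries of 8 (circle), 14 (square) and 20 weeks (diamond), with exact Poisson 95% intervals. The nonclassical markers at the left, by which the red cells were named, lie higher in the red points at every age. *Apoe*, *Mrc1* and *C1qa* lie higher in the green points.

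Classical monocyte-like cells were almost confined to 1 library: 30 of the 32 came from TNF-Tg at 20 weeks and the other 2 from WT at 14 and 20 weeks. All 8 classical markers reached at least 50 CPM. *Ly6c2*, the surface antigen of this type, was at 1486 CPM against 5.58 CPM in nonclassical monocyte-like cells, *Ccr2*, the receptor for the chemokine CCL2 that draws monocytes from bone marrow, at 831 against 17.8 CPM, and *F13a1*, which encodes a subunit of coagulation factor XIII (chr13:36867178-37050244), at 919.998 against 4.46 CPM. *Fn1*, fibronectin, was at 2401 CPM. The interferon-stimulated genes stood higher in sum in these cells than in nonclassical monocyte-like cells (2441 against 404 CPM). In these cells 8 of 17 reached 50 CPM, among them *Ifi27l2a* at 958 and *Isg15* at 223 CPM. *Cxcl10*, a chemokine induced by interferon, was at 619.6 CPM. The interferon-stimulated sum was also 1848 CPM (8 of 17) in the unnamed cluster led by *Dcn* and 1809 CPM (10 of 17) in that led by MHC class II genes. Neutrophil-like cells had 1442 CPM (7 of 17), so the trait is not particular to classical monocyte-like cells.

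Alveolar macrophage-like cells (1 from WT at 20 weeks, 7 from TNF-Tg at 14 weeks and 12 at 20 weeks) held all 8 of the alveolar macrophage list at 50 CPM or more. *Ear1*, a ribonuclease of the eosinophil family, was at 678 CPM, *Atp6v0d2*, a proton pump subunit, at 701 CPM, and *Lpl*, lipoprotein lipase, at 2163 CPM. *Ear1* was at 0 UMIs in every other class. *Mrc1*, the mannose receptor of the exclusion set, was at 636 CPM, since 1 of the set was allowed. The lysosome and phagocytosis genes summed to 19546 CPM against 5920.2 CPM in nonclassical monocyte-like cells. All 13 of 13 stood at 50 CPM or more, but so they did in the unnamed clusters led by MHC class II genes and by *Dcn*. *Ctsd*, cathepsin D, was at 5009 against 189.6 CPM.

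**Figure D4:**
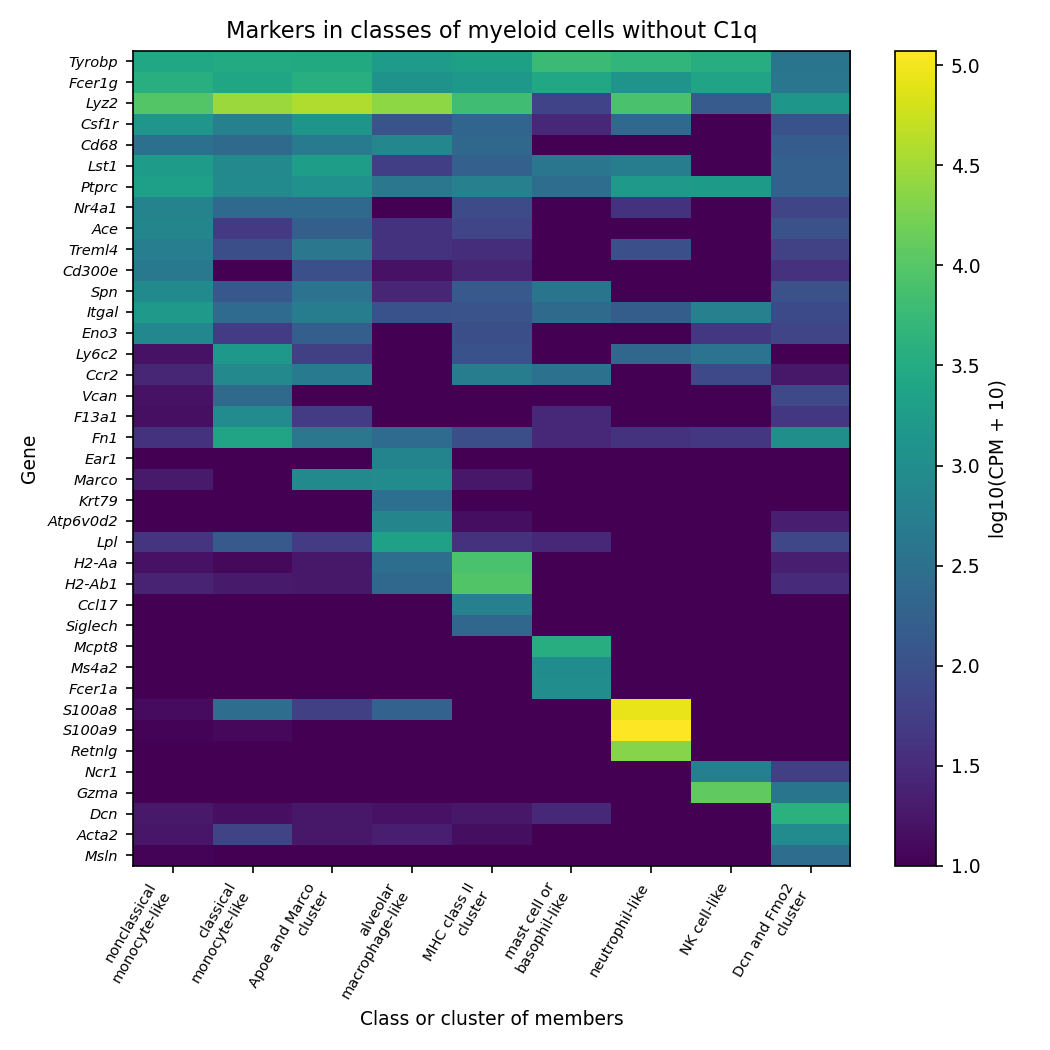
Marker levels, as log10(CPM + 10), in the classes and unnamed clusters of members, summed over libraries. The rows from *Nr4a1* to *Eno3* are brightest in nonclassical monocyte-like cells, those from *Ly6c2* to *Fn1* in classical ones and those from *Mcpt8* to *Fcer1a* in mast cell or basophil-like cells.

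Mast cell or basophil-like cells (2 from WT and 11 from TNF-Tg, all at 20 weeks) were marked by *Mcpt8*, the protease of mouse basophils, at 3461 CPM, and by *Fcer1a*, the alpha chain of the IgE receptor, at 992 CPM, both at 0 UMIs in the other classes. Of the rule genes they held *Tyrobp* at 5949.6, *Fcer1g* at 2750.3, *Lst1* at 393, *Lyz2* at 56.1 and *Csf1r* at 18.7 CPM, and no UMI of *Cd68*. *Il4*, the type 2 cytokine, was at 374 CPM and *Il6* at 206 CPM. Neutrophil-like cells (1 from WT at 20 weeks, and 1 and 4 from TNF-Tg at 8 and 20 weeks) carried *S100a8* and *S100a9*, which form calprotectin, at 85129 and 118213 CPM. NK cell-like cells, 4 from TNF-Tg at 20 weeks, carried *Gzma*, granzyme A, at 11903 CPM together with the hemoglobin gene *Hbb-bs* at 4259 CPM.

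Of the unnamed clusters, 1 of 17 cells was led by *H2-Eb1*, *H2-Ab1*, *H2-Aa* and *Cd74*, all of the MHC class II pathway, and 7 of its cells had doublet scores in the range removed as doublets. *H2-Aa* was at 7969 CPM there, and markers of several dendritic cell types stood side by side, with *Siglech* of plasmacytoid cells at 215 CPM and *Ccl17*, *Cd209a* and *Clec9a* of conventional ones at 583, 441 and 60.7 CPM. A cluster of 12 cells had *Apoe* (6700.4 CPM, in 100% of its cells) beside the monocyte genes *Treml4* (397 CPM) and *Ccr2* (486 CPM). *Marco*, a scavenger receptor, stood at 843 CPM there but was detected in only 25% of the cells. A cluster of 11 cells was led by *Dcn*, the gene of decorin (4012 CPM), and other stromal genes, with a median of 21031 UMIs, and 4 of the 11 had doublet scores in that range. Its *Tyrobp* was at 376 CPM, the lowest of all classes and clusters.

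Across the ITAM list, 13 of the 16 genes measured reached 50 CPM in nonclassical monocyte-like cells and 14 in classical ones, against 2 in the *Dcn* cluster. *Clec4e* (Mincle) was at 279 CPM in nonclassical and 336 CPM in classical cells, *Trem3* at 212 and 101 CPM, and *Pirb*, an inhibitory receptor, at 224 and 408 CPM. *Fcgr1*, the high-affinity Fc receptor, had no UMI in nonclassical monocyte-like cells and was at 58.7 CPM in classical ones. *Trem2*, a receptor for lipids, was at 289 CPM in alveolar macrophage-like cells and 10.04 CPM in nonclassical ones.

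The human transgene was not among the listed genes. Endogenous *Tnf* was at 126.9 CPM or less in the summed members of every library. At 8, 14 and 20 weeks it reached 0, 79.7 and 126.8 CPM in WT members, and TNF-Tg members had 126.9, 77.8 and 66.2 CPM, with overlap between genotypes and 1 to 19 UMIs in each library but that of TNF-Tg at 20 weeks, and none in WT at 8 weeks. *Tnfrsf1a*, the broadly expressed TNF receptor 1, was at 163 CPM in nonclassical and 110.3 CPM in classical monocyte-like cells, and *Tnfrsf1b* at 562 and 239 CPM. *Ltb*, lymphotoxin beta, was at 316 and 42.2 CPM. Among targets of NF-kB, the transcription factor TNF activates, 16 of 18 reached 50 CPM in nonclassical monocyte-like cells. In the other classes and clusters the count ran from 3 (mast cell or basophil-like) to 15 (MHC class II cluster), with 13 in classical monocyte-like cells. The summed level was 3687 CPM in nonclassical monocyte-like and 12410 CPM in neutrophil-like cells, so the count is not particular to the former. In nonclassical monocyte-like cells *Nfkbia*, the inhibitor of NF-kB, was at 731 CPM and *Il1b* at 283 CPM.

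**Figure D5:**
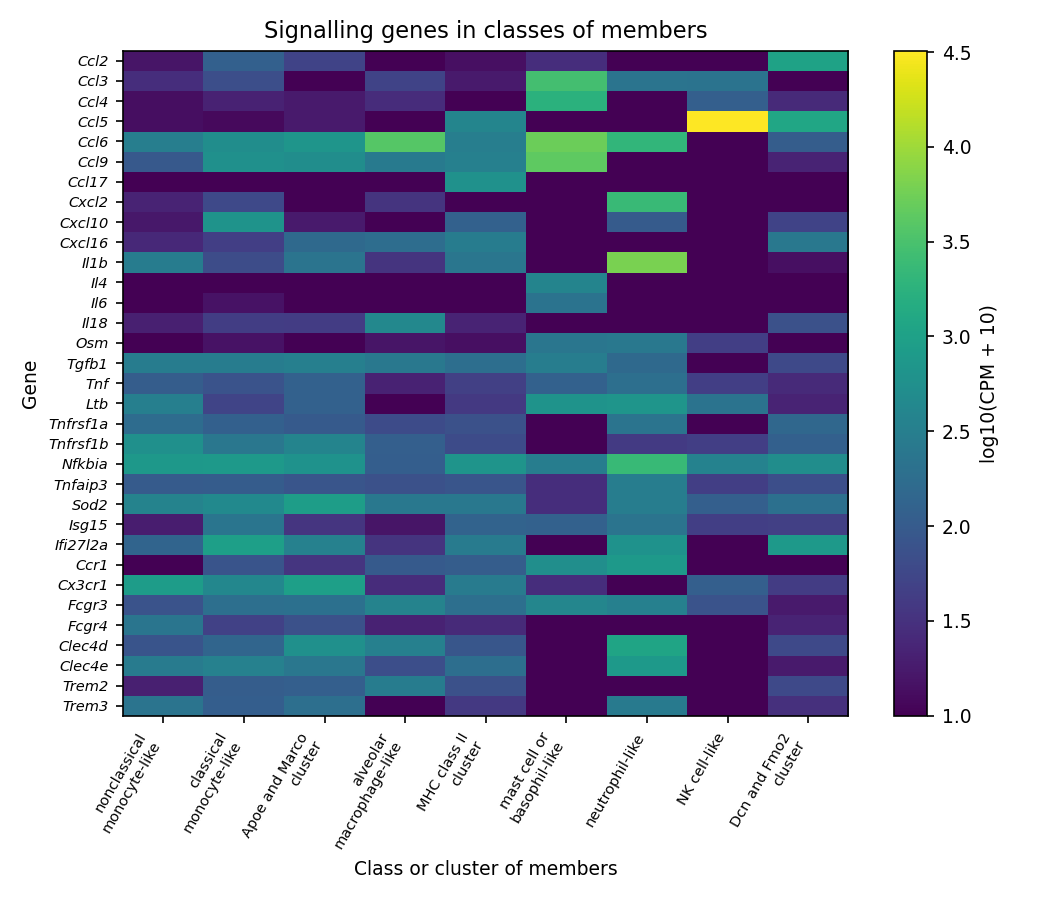
Levels, as log10(CPM + 10), of chemokines, cytokines, receptors and their targets in the classes and unnamed clusters of members, summed over libraries. *Ccl3*, *Ccl4* and *Il4* are brightest in mast cell or basophil-like cells, *Il1b* and *Cxcl2* in neutrophil-like cells, *Cxcl10* in classical and *Tnfrsf1b* in nonclassical monocyte-like cells.

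The chemokines fell into different classes. *Ccl3* and *Ccl4* were at 2899.96 and 1703 CPM in mast cell or basophil-like cells and at 19.0 and 3.35 CPM in nonclassical monocyte-like cells. *Ccl6* was spread more widely, at 5276 CPM in mast cell or basophil-like, 3807 CPM in alveolar macrophage-like and 310.1 CPM in nonclassical monocyte-like cells. *Cxcl2*, which attracts neutrophils, was at 2404 CPM and *Il1b* at 6250.2 CPM in neutrophil-like cells, a class of 6 cells. *Ccl5* was at 32114 CPM in the 4 NK cell-like cells, and *Ccl2*, the ligand of CCR2, at 1039 CPM in the *Dcn* cluster.

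Between the TNF-Tg libraries, of 3222 genes in all members 3.26% were at least 2-fold higher and 5% at least 2-fold lower at 20 weeks than in the sum of 8 and 14 weeks. This too is 1 library against 2, with no test. Of the 8 classical monocyte genes, 5 were at least 2-fold higher, with a median ratio of 5.63 beside 0.956 for all genes. Of the 9 nonclassical genes 0 passed 2-fold in either direction (median 0.752), which is near the share over all genes. The 10 largest increases were *Saa3*, *Ccl5*, *Ccl2*, *Lcn2*, *Gzma*, *F13a1*, *Tagln*, *Hdc*, *Ly6c2* and *Mmp12*. Over the members of all libraries, WT included, most of their UMIs lay in 1 class or cluster each. This held least for *Lcn2*, with 58.2% in neutrophil-like cells, and *Ccl5*, with 70.0% in NK cell-like cells. Of the others, 95.4% of the *F13a1* and 92.4% of the *Ly6c2* UMIs lay in classical monocyte-like cells, 96.5% of *Mmp12*, a macrophage elastase, in alveolar macrophage-like cells, 82.6% of *Hdc*, the enzyme that makes histamine, in mast cell or basophil-like cells, and 78.9% of *Gzma* in NK cell-like cells. The *Dcn* cluster held 89.2% of *Saa3*, an acute phase protein, 81.6% of *Ccl2* and 90.3% of *Tagln*. *F13a1* had 410 UMIs at 20 weeks and 0 before, at least 24.1-fold higher against a floor of 3 counts over the 2 libraries. *Ly6c2* had 619 and 6 UMIs, a ratio of 18.2 (exact counting interval 8.33 to 49.9).

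The 10 largest decreases were *Msln*, *Ptn*, *Prr15*, *Igfbp5*, *Fmo2*, *Pkhd1l1*, *Gpc3*, *Gpm6a*, *Bace2* and *Prss23*. For each of them 81.8% to 100% of the UMIs over the members of all libraries came from the *Dcn* cluster. Of its cells 2 were from TNF-Tg at 14 weeks and 9 from 20 weeks. *Igfbp5*, an insulin-like growth factor binding protein, was at 1195 CPM in the younger libraries and 53.1 CPM at 20 weeks.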

How the data were processed

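Single-cell RNA was measured in 6 10x Genomics 3′ libraries of sorted mouse lung cells. The authors made the UMI counts with Cell Ranger 5.0.0 (8 weeks) or 6.0.1 (14 and 20 weeks, per the file headers) on mm10 and deposited them as whole, unnormalized counts. Barcodes were kept from 500 genes up and to a limit of 10% mitochondrial UMIs. Doublets were not removed; Scrublet scores (0.8% per 1000 cells) gave an alternative.

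Groups came from the sample labels. Library shares were compared by exact permutation (scipy 1.17.1). Members were clustered in scanpy 1.11.5 (Python 3.11.15; 2000 variable genes, 20 components, 10 neighbours, resolution 1.0, no integration). A class name needed at least 3 and at least 50% of its markers at 50% or more of the highest cluster level and in at least 10% of cells. The list with the highest share of its markers gave the name, unless another list had more genes among the 10 leading ones (the MHC class II cluster: plasmacytoid list met, conventional dendritic genes leading) or it was a stromal, platelet or erythroid list. Lists of equal share were ranked by their number of markers. A second list could also be met, as the erythroid list in NK cell-like cells and the endothelial list (3 of 5) in 1 nonclassical monocyte-like cluster. Alveolar macrophage-like cells met the lipid-handling macrophage list in full (6 of 6). This rule was set after the clusters were seen. UMIs were summed per library for edgeR 4.0.16 (R 4.3.3). On simulated counts of 982 genes, 200 of them changed 4-fold, it found 39.5% of the changed genes and made 3 false calls. The spread between libraries was assumed there, not taken from these data. At that spread most changes of that size were missed, and the share missed in these data is not known. Ratios between ages used genes with at least 20 UMIs and 50 CPM in the higher sum, and the 10 largest in each direction were named, beside rule genes, markers, pathway lists and leading cluster genes. Gene positions are from GENCODE vM21.

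Members and lists were chosen with earlier results of these data known. Intervals cover counting error only, and p-values measure the spread between pooled libraries of different ages.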

Additional observations from a re-analysis of the deposited data

Results flagged for a closer look

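Barcodes that held at least 3 myeloid genes but also 2 or more endothelial genes were left out of the cells described above. They were 0.167%, 0.413% and 0.930% of kept cells in TNF-Tg at 8, 14 and 20 weeks (11, 24 and 59 barcodes), above the highest WT share of 0.0287% (1, 0 and 2 barcodes in WT). Each TNF-Tg share was singled out as a signal in barcodes outside the comparisons that exceeded the control libraries. Whether they are doublets of a myeloid and an endothelial cell was not tested.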

How the results depend on the processing

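All 26 alternatives for the 2 shares kept their direction and gave p = 0.1, 0.2 or 0.25 (exact permutation), the smallest values their numbers of libraries allow, so they say nothing of stability. Leaving out 1 library moved the share difference among kept cells between 0.236 (without TNF-Tg at 20 weeks) and 1.92 percentage points (without TNF-Tg at 8 weeks), and that among myeloid cells between -28.87 and -33.8. For the share among kept cells, requiring 2 myeloid genes gave 1.99 percentage points, and allowing no endothelial gene 0.826. The difference among myeloid cells shrank to -20.1 with 2 myeloid genes and to -23.1 with thinning. It was -24.7 with at least 1000 genes and at most 5% mitochondrial UMIs. With no endothelial gene it was -26.5, where the WT library of 8 weeks had no myeloid cell left. It was -32.9 with 4 myeloid genes and -32.6 with doublets removed. Chosen after seeing the data, other resolutions, another random start and doublet removal left 20 of 24 class shares within their interval. With doublets removed, 48.0% of members (119 of 248) were nonclassical monocyte-like and no NK cell-like class was named. As 0 of the 147 nonclassical monocyte-like cells were among the doublets, the lower share came from clustering and naming anew. At resolution 0.5, 17.2% were classical monocyte-like and again no NK cell-like class was named. The planned genotype fit, with its age block, scaling, filter and leave-one-out alternatives, was not run because WT had too few cells. A pairing by age as a replicate block, likewise added after seeing the data, gave differences of 1.31 and -32.07 percentage points (exact permutation by sign flips, p = 0.25 for both, the smallest that 3 pairs allow).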

Other observations

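*Fabp4*, a fatty acid binding protein of endothelium, adipocytes and macrophages, was chosen after its values were seen. It had no UMI in the 8 WT members, and stood at 279, 201 and 199.6 CPM in the TNF-Tg members of 8, 14 and 20 weeks, where 5 of 8, 14 of 25 and 97 of 221 cells held it. In nonclassical monocyte-like cells of TNF-Tg it was at 298, 313 and 356 CPM, and in C1q and Pf4 macrophages at 0, 7.21 and 60.2 CPM. Endothelial reference cells also held it, in 1.35% to 2.10% of cells in WT and 2.53%, 6.20% and 9.27% in TNF-Tg, at median depths of 4268 to 4554 and 9009 to 9657 UMIs. The part of RNA from other cells in these values was not tested, and 2 nonclassical monocyte-like cells in WT are too few for a comparison between genotypes.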
